A study of Mus musculus with 12 samples.

Results

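The smooth muscle contractile genes are a set of 10 named genes whose proteins build and regulate the contractile apparatus of visceral muscle. They were chosen by name from textbook function, with earlier results of these data known. Of the 10, 8 had a probe set of their own among the 11807 genes measured. Acta2, Actg2, Myh11, Mylk, Cnn1, Des, Lmod1 and Synpo2 could be read. Tagln, the actin-binding protein transgelin, was present only in a probe set that also names Pcsk7 and was assigned to neither gene, and Smtn, smoothelin, had no probe set among those annotated here. RNA had been taken from frozen stomach and frozen colon of 16 week old C57BL/6 mice. The labels give 3 genotypes at Spdef, the wild type (WT), the heterozygote (HET) and the knockout (KO), and no treatment. Spdef encodes an Ets-family transcription factor of secretory epithelium, and the labels do not say in which cells or by what allele it was removed. Each of the 6 groups of tissue and genotype had 2 arrays. The labels leave unsaid whether a pair of arrays stands for 2 animals, so each p-value measures only the spread between these arrays, which may be technical.

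In smooth muscle, a rise in calcium lets calmodulin activate myosin light chain kinase. The kinase phosphorylates the light chain of myosin and so lets the smooth muscle myosin heavy chain pull on thin filaments of smooth muscle actin. Calponin sits on those filaments, leiomodin nucleates actin, and desmin and synaptopodin 2 help to tie the filaments to the cell's framework. Both stomach and colon have an outer coat of such muscle, and genes of this kind are classically driven by serum response factor with myocardin through a DNA element called the CArG box.

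Every level below is log2 of the deposited array intensity plus 16, after quantile normalization over the 12 arrays, and every difference is a difference of such levels. Levels of different genes come from different probes, so no gene is ranked against another by its level. A gene counted as changed where limma's moderated test gave an adjusted p under 0.05 over all genes tested. In whole tissue, fewer cells of a type and less RNA per cell cannot be told apart.

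The arrays carried some features that touch the member genes. Stomach and colon arrays were told apart by 6 genes of stomach glands, which averaged 13.95 to 14.05 in stomach and 4.71 to 5.15 in colon. Colon WT 2 had a mean correlation of 0.888 with the other colon arrays, against 0.931 to 0.956 for each of those, and the stomach arrays lay between 0.970 and 0.976. A list of 6 small intestinal epithelial genes averaged 12.11 on colon WT 2 and 5.31 to 6.29 on the other 5 colon arrays, while of 5 colon epithelial genes 2 were low there, Car1 at 6.65 (13.50 to 14.01 elsewhere in colon) and Aqp8 at 5.54 (8.82 to 12.36). The other 3 were not, with Zg16 at 14.30, the highest of the colon arrays, Muc3 at 13.80 within their range and Guca2a at 13.78 (13.93 to 14.19 elsewhere). On stomach WT 1, 10 skeletal muscle genes averaged 7.13, against 5.61 to 5.82 on the other stomach arrays. A list of 6 squamous epithelial genes, which mark the forestomach, averaged 8.10 and 8.82 in stomach WT, 10.02 and 6.58 in HET, and 4.95 and 5.14 in KO. In stomach, 4 adipose genes averaged 8.69 to 9.45 in WT and HET and 8.40 and 8.41 in KO. Colon KO 2 was low in the same genes: Adipoq at 7.34 (10.81 to 11.75 elsewhere in colon), Fabp4 at 10.54 (12.35 to 13.22), Retn at 5.14 (6.75 to 8.66) and Plin4 at 6.48 (8.11 to 8.44). The mesothelial gene Upk3b was low there too, at 6.10 (8.09 to 10.08 elsewhere in colon). Spdef itself, which should separate the genotypes, read 10.97 and 8.74 in colon WT, 10.27 and 9.81 in colon HET, and 9.08 and 9.25 in colon KO. In stomach it read 9.19 and 8.96 in WT, 9.06 and 8.94 in HET, and 8.86 and 8.63 in KO. The KO arrays were thus below both WT arrays in stomach but not in colon, where the array labelled WT 2 was the lowest of all 6. The labels do not say which part of Spdef was removed, so its probes may lie outside it, and the names WT, HET and KO are used as the labels give them. The submitters' processing notes give RMA as the algorithm of colon WT 1 and of both stomach KO arrays, and MAS5 as that of the other 9. The comparisons of tissues are therefore also given without the WT arrays of both tissues.

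Both actins of smooth muscle were measured. Acta2, smooth muscle alpha-actin, lies at chr19:34240336-34255585 (GRCm38.p6). It was the steadiest member in stomach, reading 13.34 and 13.32 in WT, 13.31 and 13.39 in HET, and 13.24 and 13.39 in KO. In colon it read 13.55 and 12.95 in WT, 13.44 and 13.53 in HET, and 13.19 and 13.36 in KO. The colon arrays bracket all the stomach arrays, and the lowest of the 12 is colon WT 2. Its mean was 13.33 ± 0.06 (SD, n = 6) in stomach and 13.34 ± 0.23 (SD, n = 6) in colon. The name of its probe set ends in s_at, the manufacturer's mark for probes that can match more than 1 transcript, so part of its signal may belong to a related actin.

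Actg2, smooth muscle gamma-actin, is the actin typical of visceral muscle and lies at chr6:83512909-83536251. In stomach it read 11.76 and 12.22 in WT, 12.42 and 12.25 in HET, and 12.18 and 12.01 in KO. In colon it read 12.93 and 11.70 in WT, 12.90 and 13.19 in HET, and 12.30 and 12.53 in KO. Both colon HET arrays lie above every stomach array, and colon WT 2 lies below all of them.

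The motor itself was represented by Myh11, the smooth muscle myosin heavy chain, at chr16:14194527-14292188. It read 11.72 and 11.59 in stomach WT, 11.69 and 12.06 in stomach HET, and 11.91 and 11.34 in stomach KO. In colon it read 12.83 and 10.93 in WT, 12.31 and 12.56 in HET, and 12.12 and 12.36 in KO. Without colon WT 2, each colon array would lie above each stomach array. That 1 array was 1.90 below its partner.

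Mylk encodes myosin light chain kinase, the enzyme that switches the motor on, and lies at chr16:34745199-35002436. It read 11.40 and 11.49 in stomach WT, 11.51 and 11.65 in stomach HET, and 11.44 and 11.69 in stomach KO. In colon it read 12.78 and 12.51 in WT, 12.62 and 12.52 in HET, and 12.38 and 12.14 in KO. All 6 colon arrays were above all 6 stomach arrays, and colon WT 2 stood among the other colon arrays here.

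Cnn1, calponin 1, which binds the thin filament and damps myosin's activity on it, lies at chr9:22099221-22109221. It read 11.75 and 11.65 in stomach WT, 11.68 and 11.67 in stomach HET, and 11.63 and 11.32 in stomach KO. In colon it read 12.78 and 10.68 in WT, 12.09 and 12.60 in HET, and 11.83 and 12.31 in KO. The stomach arrays had an SD of 0.15 and the colon arrays an SD of 0.75 (n = 6 each), with colon WT 1 at the top and colon WT 2 at the bottom.

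Des, desmin, the intermediate filament of muscle cells, lies at chr1:75360292-75368579. It read 10.25 and 10.29 in stomach WT, 10.47 and 10.33 in stomach HET, and 10.28 and 9.96 in stomach KO. In colon it read 11.92 and 9.77 in WT, 10.95 and 11.43 in HET, and 10.75 and 11.04 in KO. As with calponin, 5 of the colon arrays lay above all stomach arrays and colon WT 2 lay below all of them.

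Lmod1 and Synpo2 read nearest to the level required for testing, 6.53. Lmod1, leiomodin 1, which nucleates actin filaments in smooth muscle, lies at chr1:135324813-135368065 and read 6.90 to 8.01 in stomach (median 7.24) and 6.72 to 8.32 in colon (median 7.36). The 2 highest arrays were colon WT 1 and stomach WT 1, and the 2 lowest were colon WT 2 and stomach WT 2. Synpo2, synaptopodin 2, an actin-bundling protein, lies at chr3:123076519-123236168 and read 5.60 to 6.63 in stomach (median 5.98) and 4.95 to 7.39 in colon (median 6.56). It reached the level required for testing on 1 stomach array and 3 colon arrays, so it was not tested within stomach and entered the comparison of tissues only through colon. Counts of members between tissues are therefore given over the other 7.

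**Figure D1:**
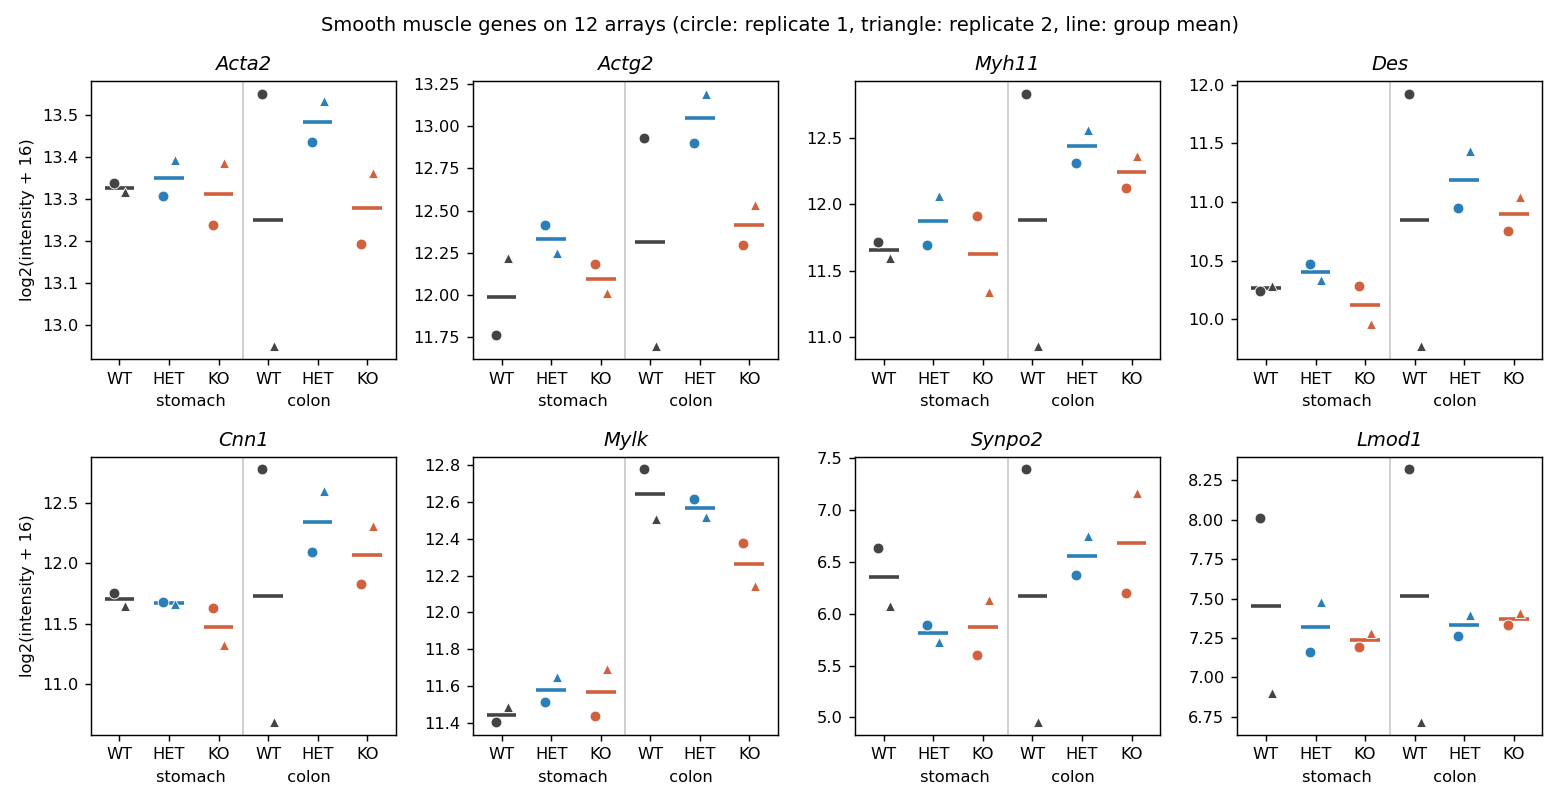
Level of each of the 8 measured genes on every array, as log2(intensity + 16), by tissue and genotype. Circles are replicate 1, triangles replicate 2, and short lines the mean of 2 arrays. Mylk in colon (12.14 to 12.78) lies wholly above Mylk in stomach (11.40 to 11.69), and the colon WT pair is the widest pair for Cnn1, Des, Myh11 and Synpo2.

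The order of the 6 groups differed between members. For Mylk the 3 colon groups came first, with means of 12.64 ± 0.19 in WT, 12.57 ± 0.07 in HET and 12.26 ± 0.17 in KO (SD, n = 2 each). Stomach HET (11.58 ± 0.10), stomach KO (11.57 ± 0.18) and stomach WT (11.44 ± 0.06) followed. Colon WT and colon HET differed by less than the larger of their SDs, as did the stomach groups, while the steps from colon HET to colon KO and from colon KO to stomach HET were larger. Colon HET had the highest mean for Acta2, Actg2, Myh11, Des and Cnn1. For Des and Cnn1 the gap between colon HET and the next group was within the larger SD. For Synpo2 and Lmod1 each neighbouring pair of groups in the order was within it.

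Promoter windows were examined because several members move together from array to array and the CArG box is the element known for this gene class. RefSeq windows (GRCm38.p6) were found for 7 of the 10 genes: Acta2, Des, Cnn1, Mylk, Synpo2, Lmod1 and Smtn. The 250 bases before the start that RefSeq gives for each window were searched for the CArG box, which reads alike on both strands. That start need not be the outer end of the gene. The Mylk window, chr16:34784700-34784999, lies inside the Mylk gene (34745199-35002436), so the bases before that gene's first coordinate were not searched. The Acta2 window, chr19:34255324-34255623, overlaps the Acta2 gene (34240336-34255585). No member window held an exact match, against 1.47% of all 32851 windows of that length. With 1 inner mismatch allowed, the Acta2 window held 2 matches and the others held none. Of all windows, 8.59% held at least 1 such match and 0.67% held at least 2. The stretch of Acta2 that carries both is shown because smooth muscle actin is the member best known for this element. It is chr19:34255388-34255467 on the minus strand, with the matches in capitals, beginning 84 and 34 bases before the start that RefSeq gives for this window.
Acta2: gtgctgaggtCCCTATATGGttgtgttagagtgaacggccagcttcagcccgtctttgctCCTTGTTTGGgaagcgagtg
A match describes letters only, and its absence says only that these letters are not in this window. Acta2, the member with the matches, is also the one with the smallest range over the 12 arrays (0.60), and no reading of binding was made.

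The first comparison asks how the muscle genes differ between the organs. Mylk was higher in colon than in stomach by 0.96 (SE 0.083, 95% interval 0.77 to 1.15, 1.95-fold), with an adjusted p of 1.48e-05 by limma over 8393 genes. It was 1 of 7 members that passed, where 21.4% of all genes tested were higher in colon and 48.8% changed in either direction. It was likewise the 1 member of 7 whose colon and stomach arrays did not overlap, against 12.3% of genes higher in that way. The 7 differences had a median of 0.45, against -0.05 over all genes.

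No other member passed over 12 arrays. Des differed by 0.71 (SE 0.31, adjusted p = 0.0827), Actg2 by 0.45 (SE 0.19, adjusted p = 0.0803) and Myh11 by 0.47 (SE 0.28, adjusted p = 0.196), all by limma. Cnn1 differed by 0.43 (SE 0.30, adjusted p = 0.267) and Synpo2, read from colon, by 0.46 (SE 0.39). Acta2 and Lmod1 were nearest to 0, at 0.01 (95% interval -0.21 to 0.23) and 0.07 (SE 0.28).

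For each of the 8 members the colon WT arrays lay farther apart than any other pair. With the WT arrays of both tissues left out, a setting chosen after the values were seen, 5 of 7 members were higher in colon and none lower, where 20.9% of all genes were higher and 45.3% changed. Mylk differed by 0.84 (SE 0.098, adjusted p = 0.000228), Des by 0.78 (SE 0.14, adjusted p = 0.00264) and Actg2 by 0.51 (SE 0.10, adjusted p = 0.00421), by limma over the 8 HET and KO arrays. Cnn1 differed by 0.63 (adjusted p = 0.0100) and Myh11 by 0.59 (adjusted p = 0.0135) in the same limma model. Synpo2 averaged 6.62 in colon and 5.84 in stomach, where none of the 4 arrays reached the level required for testing, so its p is not given. Acta2 and Lmod1 did not pass: Acta2 had a difference of 0.05 with a 95% interval of -0.12 to 0.22, and Lmod1 of 0.07 with an interval of -0.25 to 0.39. On the measured scale those intervals leave out differences of the size seen for Mylk and Des. The Acta2 probe set is bright on every array and that of Lmod1 reads near the level required for testing. Whether they respond as fully as those of Mylk and Des was not tested. The arrays of 4 of 7 members did not overlap, against 19.7% of genes, and the median of the 7 was 0.59 against -0.04 over all genes.

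Leaving out single arrays moved the same count. Without colon WT 2, 5 of the 7 passed (52.3% of all genes did), with Des at 1.07 (adjusted p = 5.08e-05), Myh11 at 0.78 (adjusted p = 0.000616) and Cnn1 at 0.78 (adjusted p = 0.000634) by limma. Without colon WT 1, 2 of 7 passed, Mylk at 0.92 and Des at 0.35 (limma, adjusted p = 0.0282), where 54.2% of all genes did. In these fits the remaining array of a pair is assumed to vary like the other groups.

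**Figure D2:**
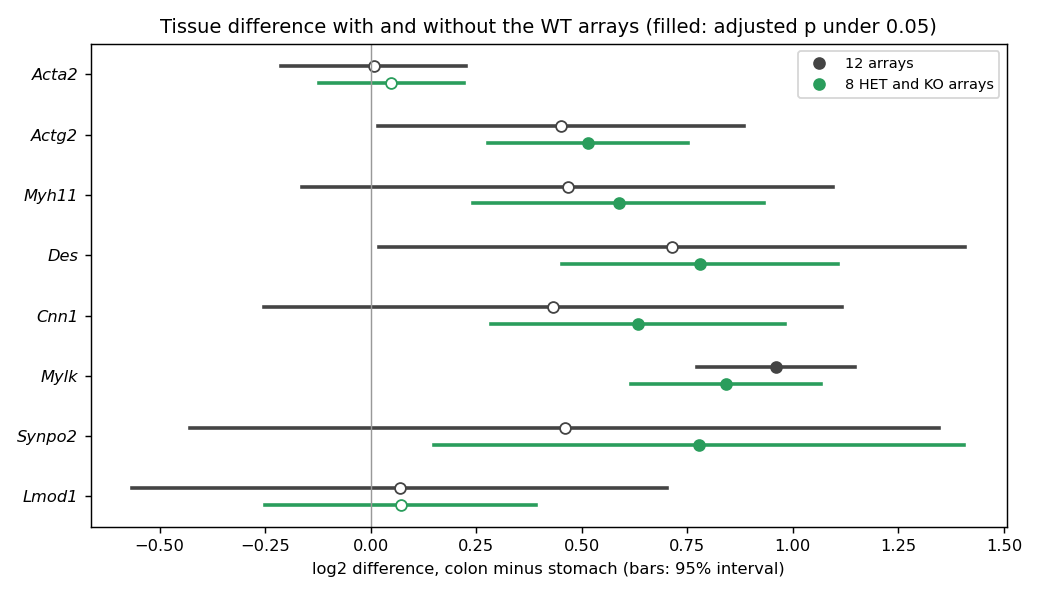
Difference between colon and stomach for each gene on the log2 scale, with 95% intervals, over all 12 arrays and over the 8 HET and KO arrays. Filled points passed an adjusted p of 0.05. Mylk passed in both (0.96 and 0.84), and Acta2 and Lmod1 stayed near 0 in both. Of the 5 genes filled only without the WT arrays, Synpo2 was at the level required for testing on colon arrays alone.

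Within each genotype Mylk was again higher in colon, by 1.20 in WT (adjusted p = 0.000368), 0.99 in HET (adjusted p = 0.00121) and 0.70 in KO (adjusted p = 0.00789), by limma. It was the 1 member of 7 called in each, where 10.9%, 10.3% and 10.5% of all genes were called higher. In HET, 6 of 7 members had both colon arrays above both stomach arrays, against 32.8% of genes, and in KO also 6 of 7, against 28.6%. In WT that held for 1 of 7, against 25.8%. Without stomach KO 1 the difference in KO did not pass (0.57, limma adjusted p = 0.0602, with 13.3% of all genes called). Without either colon WT array, 4 members passed in HET (31.0% or 31.1% of all genes, Actg2, Des, Cnn1 and Mylk) and 4 in KO (31.9% or 31.8%, Myh11, Des, Cnn1 and Mylk). Without the WT arrays of both tissues the same 4 passed in HET (29.1% of all genes did), and Des and Mylk passed in KO (29.6%). In WT the 2 colon arrays gave opposite readings. Without colon WT 2, 5 members passed and all were higher in colon (26.3% of all genes changed), Cnn1 by 1.08. Without colon WT 1, Cnn1 was lower in colon, at -1.02, with Myh11 (-0.72) and Acta2 (-0.38) also lower, while Mylk was higher by 1.06 (35.2% of all genes changed).

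Mylk had 3 probe sets, and all of them separated the tissues. The second gave 1.04 and the third 1.46. On the third, stomach read 7.66 to 8.15 and colon 8.60 to 11.21, with colon WT 1 as the highest array. With the third in place of the first, the difference did not pass in HET (1.29, adjusted p = 0.0663) or KO (0.82, adjusted p = 0.220) by limma. The second probe set of Myh11 gave 0.42 but reached the required level on 5 of 12 arrays, and those of Des and Acta2 did so on none.

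Because Mylk kept its colon level on colon WT 2 while the motor did not, the difference between Mylk and Myh11 was taken on each array, a measure chosen after the values were seen. It was 1.58 on colon WT 2 and -0.22 to 0.31 on the 4 colon HET and KO arrays. Over 6 arrays of each tissue it was higher in colon by 0.49, with a two-sided exact permutation p of 0.0844, where the smallest possible is 0.00216. Without the WT arrays it was 0.25 (exact permutation p = 0.314). The tissue difference of Mylk was thus not distinguishable from that of Myh11 by this test.

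The colon WT arrays were set against the mean of the 4 colon HET and KO arrays. Colon WT 1 was the highest colon array for 7 of the 8 members, all but Actg2, against 16.4% of 7913 genes. Colon WT 2 was the lowest for 7 of 8, all but Mylk, against 34.1%. Both held for 6 of 8, against 7.58%, and the reverse order held for 5.65% of genes. The members' median relative to the HET and KO mean was 0.53 on colon WT 1 and -1.15 on colon WT 2, with medians of -0.02 and -0.09 over all genes. Between the 2 arrays Synpo2 differed by 2.43, Des by 2.15, Cnn1 by 2.10, Myh11 by 1.90, Lmod1 by 1.60, Actg2 by 1.24, Acta2 by 0.60 and Mylk by 0.27. The small intestinal list, Car1 and Aqp8 given above stood apart on colon WT 2 as well, as did a list of 5 fibroblast genes, which averaged 11.01 on colon WT 2 and 11.35 to 11.96 elsewhere in colon. A list of 7 general epithelial genes averaged 12.93 there, within the 12.84 to 13.06 of the other colon arrays. The part of any of these in the members' levels was not tested.

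**Figure D3:**
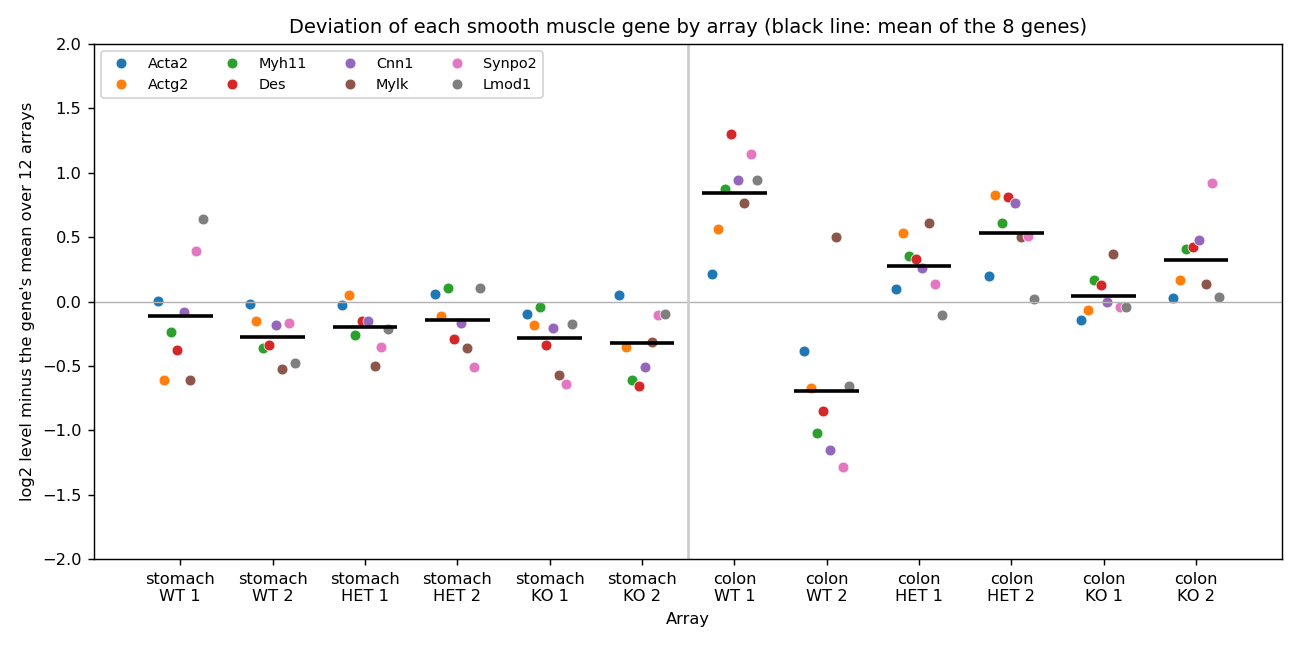
Level of each gene on each array minus that gene's own mean over 12 arrays, on the log2 scale, with 1 colour per gene and the mean of the 8 genes. The mean profile stays between -0.32 and -0.11 in stomach and runs from 0.85 on colon WT 1 to -0.69 on colon WT 2, where Mylk stays high.

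How alike the members were was described by the root mean square distance between a gene's profile over the 12 arrays and the mean profile of the others, smaller meaning more alike. Cnn1 (0.20), Myh11 (0.20), Des (0.24) and Actg2 (0.26) were closest to the rest, and Acta2 (0.34), Lmod1 (0.37), Synpo2 (0.39) and Mylk (0.49) farthest. The median over all 8393 genes, against the mean of all members, was 0.53. Outside the set, the 8 genes nearest to the members' mean profile were Nrp2 (0.143), Fam114a1 (0.145), Sparcl1 (0.153), Mustn1 (0.156), Rhoq (0.161), Flna (0.170), Pdxdc1 (0.180) and Kctd17 (0.181). Of these, Flna encodes filamin A, a crosslinker of actin. The genes were picked by this likeness, which the colon WT pair dominates, so it is a description.

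The next comparisons ask what loss of Spdef did to muscle genes. No member passed in any of the 6 comparisons of genotypes within a tissue. In stomach, KO minus WT ran from -0.23 for Cnn1 to 0.12 for Mylk over 7 members tested (median -0.03), where 0.0127% of all genes passed, and none of the members had an unadjusted p under 0.05, as against 3.56% of genes. Cnn1 was the 1 member of 7 with both KO arrays under both WT arrays, against 16.7% of genes. HET minus WT had a median of 0.13 (0% of genes passed, and 2.2% were under an unadjusted 0.05, with no member among them). The highest was Actg2 at 0.34 (95% interval -0.41 to 1.10), and Actg2, Des and Mylk made 3 of 7 members with both HET arrays above both WT arrays, against 17% of genes. KO minus HET was below 0 for 7 of 7, between -0.28 for Des and -0.01 for Mylk (0.0127% of genes passed, and 1.86% were under an unadjusted 0.05, with no member among them). The arrays did not overlap for 3 of 7 of these, Actg2, Des and Cnn1, against 13.5% of genes. Actg2 and Des were thus high on the HET pair against both other genotypes. The squamous genes Krtdap (-5.72), Sprr3 (-4.85), Krt13 (-3.36) and Krt4 (-3.18) also had both KO arrays under both HET arrays without passing, and their part in the members' values was not tested. For Mylk the 95% interval of KO minus WT in stomach was -0.20 to 0.45, so a change as large as its difference between the tissues lies outside it. In stomach both KO arrays carry the RMA note and the other 4 the MAS5 note, so genotype and processing note cannot be told apart there.

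In colon the members' KO minus WT differences had a median of 0.07, and 0.0505% of all genes passed. Mylk was the lowest, at -0.38 (SE 0.14, 95% interval -0.70 to -0.06, unadjusted p = 0.0257, limma adjusted p = 0.421), with both KO arrays under both WT arrays. It was the 1 member of 8 apart in that way, against 10.6% of genes, and the 1 member with an unadjusted p under 0.05, as had 11.2% of genes. The third of its probe sets gave -1.63, with colon WT 1 as the array far from the rest. Synpo2 was the highest at 0.51 (SE 0.68). Adipose genes were low on colon KO 2, as given above, and their part in the colon KO values was not tested.

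Colon HET minus WT had a median of 0.37 (0.0253% of genes passed, and 9.62% were under an unadjusted 0.05, with no member among them). Actg2 was the highest at 0.73 (SE 0.33, limma adjusted p = 0.517). Colon KO minus HET is a difference between HET and KO arrays alone, but the normalization and the errors over 12 arrays use the WT arrays. It had a median of -0.24 (0.0253% of genes passed, and 4.11% were under an unadjusted 0.05, with no member among them). Actg2 was at -0.63 (95% interval -1.38 to 0.12) and Mylk at -0.31 (95% interval -0.63 to 0.02), each with an adjusted p of 0.998 by limma. Without the WT arrays in the fit, Actg2 had the same difference with an interval of -0.97 to -0.30 (unadjusted p = 0.00235, limma adjusted p = 0.562) and Mylk one of -0.62 to 0.01. No member passed there (0.0646% of genes did), and Actg2 was the 1 member of 8 under an unadjusted 0.05, against 6.6% of genes. With Acta2, Actg2 and Mylk made 3 of 8 members whose KO arrays lay under both HET arrays, against 15.1% of genes.

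The colon genotype counts depended on colon WT 1. Without it, WT rests on colon WT 2 alone, and 5 members were higher in HET than in WT, where 13.7% of all genes changed: Cnn1 by 1.66, Myh11 by 1.50, Des by 1.42, Actg2 by 1.35 and Acta2 by 0.53. In KO minus WT 3 members then passed, where 12.3% of genes did: Cnn1 by 1.39, Myh11 by 1.31 and Des by 1.12. Without colon WT 2 instead, no member passed in either comparison (0.0767% and 0.307% of genes did).

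Whether the effect of genotype differed between tissues was tested as an interaction, colon minus stomach. For KO minus WT no member passed over 12 arrays (0.0238% of all genes did, and 4.63% were under an unadjusted 0.05). Mylk was at -0.50 (SE 0.20, unadjusted p = 0.0346), and the smallest adjusted p among members was 0.888 by limma. Without colon WT 1, Cnn1 (1.61), Myh11 (1.34) and Des (1.27) passed, where 4.70% of all genes did. For KO minus HET no member and no gene passed (0%), and 2.18% of genes, with no member among them, were under an unadjusted 0.05.

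**Figure D4:**
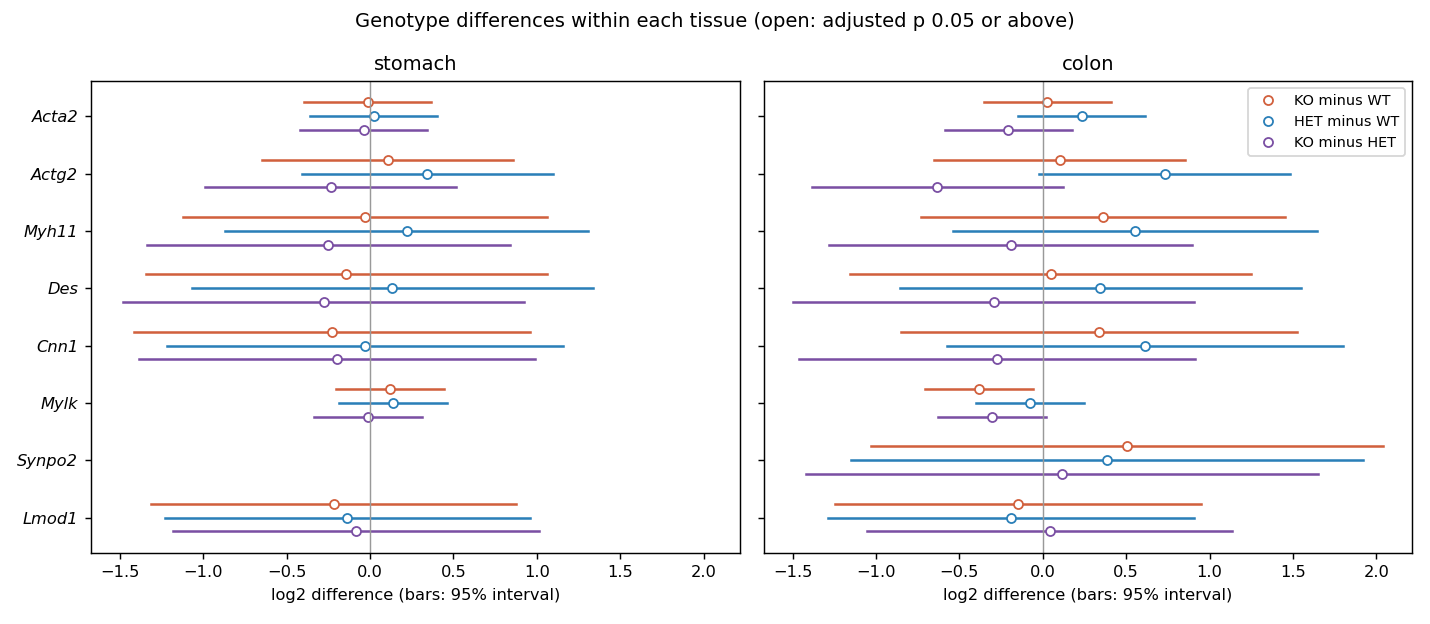
Differences between genotypes within stomach and within colon for each gene on the log2 scale, with 95% intervals. Open points did not pass an adjusted p of 0.05, and all of them are open. In colon the lowest KO minus WT value is Mylk at -0.38, and the bars of Synpo2, Des and Cnn1 are wide.

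The other genes of the contractile pathway were read from lists, each described beside the 48.8% of all genes that changed between the tissues over 12 arrays and the 45.3% that changed without the WT arrays. Of 12 thin filament and dense body genes, 1 was higher in colon and 3 lower. Pdlim3, a PDZ and LIM domain protein of the actin cytoskeleton, was higher by 0.92 (SE 0.25, limma adjusted p = 0.0132). It read 11.21 on colon WT 1 and 9.48 on colon WT 2, the same order as the members. Its relative Pdlim7 (-0.83), Fhl1 (-0.70) and Palld (-0.38) were lower. The tropomyosins Tpm1 (0.03) and Tpm2 (0.35, limma adjusted p = 0.0645) did not pass over 12 arrays. Without the WT arrays 2 were higher, Pdlim3 (1.08) and Tpm2 (0.39, limma adjusted p = 0.0297), and the same 3 were lower.

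Of 6 genes of the myosin light chain and its regulation, 2 were higher. Ppp1r14a, also known as CPI-17, an inhibitor of myosin phosphatase that acts in the same direction as the kinase Mylk, was higher by 2.24 (SE 0.17, adjusted p = 6.75e-06 by limma). It read 6.08 to 6.80 in stomach and 8.31 to 9.21 in colon, with no overlap, and colon WT 2 at 8.31 was again the lowest colon array. Its stomach mean, 6.50, lies just under the level required for testing. The kinase Rock1, which restrains the phosphatase, was higher by 0.28 (adjusted p = 0.0219). Myl9, the light chain that Mylk phosphorylates, differed by 0.25 (adjusted p = 0.0508), and Myl6 by 0.10. In the HET and KO arrays alone 2 again passed, but Myl9 did (0.34, limma adjusted p = 0.0160) and Rock1 did not (0.25, limma adjusted p = 0.0508), beside Ppp1r14a at 2.33.

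Of 7 calcium handling and channel genes, 3 were higher and 1 lower. Kcnma1, the pore of the large-conductance potassium channel, was higher by 1.45 from a stomach mean of 5.18, under the level required for testing. Gucy1b1, a subunit of the nitric oxide receptor, was higher by 0.87, and Atp2a2, the calcium pump of the reticulum, by 0.36. Casq2, a calcium store protein, was lower (-0.89). Atp2a2 did not pass without the WT arrays (0.28, limma adjusted p = 0.0862), while Kcnma1 (1.91), Gucy1b1 (0.88) and Casq2 (-0.97) did. Of 3 contraction receptors, Ednrb, an endothelin receptor, was higher by 0.47 (limma adjusted p = 0.0472) over 12 arrays but did not pass without the WT arrays (0.46, limma adjusted p = 0.108). Among 7 transcription factors, Myocd, the myocardin that drives this gene class, was higher by 0.75 (SE 0.22, limma adjusted p = 0.0174), while Srf differed by 0.12 (adjusted p = 0.486) and its other cofactor Mrtfa was lower (-0.62). Myocd (0.72) and Mrtfa (-0.55) passed without the WT arrays too.

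The paralogues that are not typical of smooth muscle had a different leading gene. Cnn3, the widely expressed calponin, was higher in stomach: colon minus stomach was -2.38 (SE 0.096, adjusted p = 7.9e-08 by limma), from 13.01 to 13.34 in stomach and 10.46 to 11.02 in colon. Its relative among the members, Cnn1, had a difference of 0.43 that did not pass. Of 11 paralogues tested, Acta1 (1.17) and Vim (0.78) were higher. Acta1, the skeletal actin, was also high on stomach WT 1 (8.88, against 5.66 to 6.59 on the other stomach arrays), the array with the skeletal muscle signal. Its difference was -0.73 in WT (SE 0.69) and 2.13 without the WT arrays (limma adjusted p = 0.000165), where Vim was at 0.85 and Cnn3 at -2.32. Nonmuscle Actb (-0.08), Actg1 (-0.16) and Myh9 (0.06) did not pass.

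Cell types of the muscle coat other than muscle were read from marker lists. Of 4 genes listed for interstitial pacemaker cells and tested, 3 were higher in colon. P2ry1 was higher by 3.34 from a stomach mean of 4.43, under the level required for testing, Kit by 0.83 and Etv1 by 0.75. These genes did not all move together. On colon WT 2, P2ry1 was at its highest in colon (8.71), while Kit (7.77), Etv1 (7.16) and Ano1 (6.58) were at their lowest. Of 8 enteric neuron genes 6 were higher (median 0.90). The neuron list averaged 7.02 on colon WT 2 and 7.04 on colon KO 2, against 7.68 to 8.20 on the other colon arrays. Both counts were the same without the WT arrays. The neuron count there held Nos1 (0.65, limma adjusted p = 0.0278) but not Elavl4 (0.80, limma adjusted p = 0.0588), so an equal count need not mean the same genes. Of 5 fibroblast genes none passed (median 0.07), and 1 did without the WT arrays. Of 4 vascular mural genes 1 was higher and 1 lower, and without the WT arrays 1 of 3 was lower. Of 7 endothelial genes 1 was lower, of 4 adipose genes 2 were higher over 12 arrays and 0 without the WT arrays, both mesothelial genes tested were higher, and of 5 skeletal muscle genes 2 were higher and 2 lower. No gene of the glia list reached testing. These list counts, unlike those of the members, keep genes that reached testing through 1 tissue alone. Elavl4 (5.42 to 6.71 in stomach) and Msln (4.66 to 6.35 in stomach) entered through colon, and Tnni2 (4.20 to 5.61 in colon) through stomach. Ano1, also on the pacemaker list, did not pass in WT (-0.88), in HET (0.51) or without the WT arrays (0.48). In WT, Kit (0.35), Etv1 (0.12) and Vip (0.01) did not pass either, while P2ry1 did (3.47). The pacemaker and neuron genes that passed over 12 arrays thus moved in the same direction as Mylk. Their part in the members' difference was not tested. In the 6 genotype comparisons and 2 interactions no gene of the thin filament, light chain, calcium, receptor or transcription factor lists passed. The smallest p among them in colon KO minus HET was that of Myl9, at -0.41 (unadjusted p = 0.0315, limma adjusted p = 0.998), followed by the prostaglandin receptor Ptger3 at -0.83 (unadjusted p = 0.0715, limma adjusted p = 0.998).

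**Figure D5:**
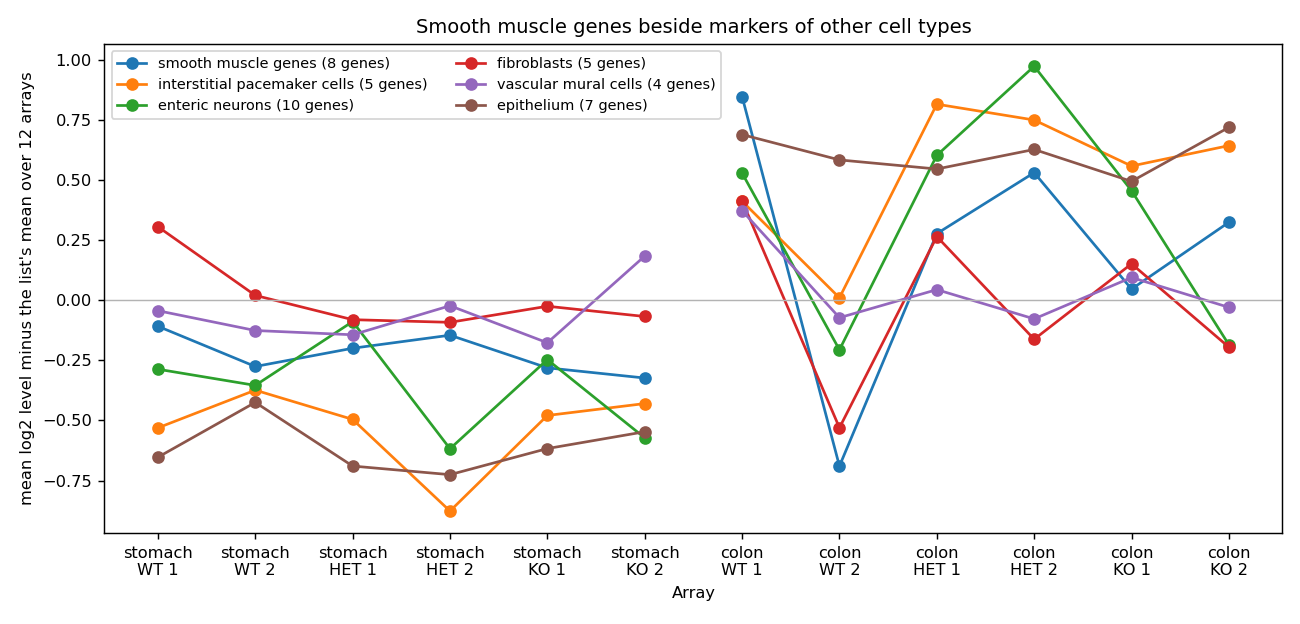
Mean log2 level of each gene list on each array minus the list's own mean over 12 arrays. Lines join the arrays of a tissue to help the eye and carry no order. The 8 members run from 10.39 to 10.61 in stomach and from 10.03 on colon WT 2 to 11.56 on colon WT 1, and the neuron list is low on colon WT 2 and colon KO 2.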

How the data were processed

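The deposited table holds 1 intensity per probe set and array on a linear scale, scaled by the authors to a trimmed mean near 500 on every array. MAS5 is the algorithm of 9 arrays and RMA that of 3, per the submitters' processing notes, which give no versions. The array is the Affymetrix HT Mouse Genome 430, per the labels. Of 22626 probe sets that are not controls, 18003 had 1 gene in the platform annotation, and the brightest represented each of 11807 genes. Log2(intensity + 16) was quantile normalized and fitted with limma 3.58.1 (R 4.3.3) over 6 groups, with an intensity trend and Benjamini-Hochberg adjustment over all genes that reached 6.53, the 40th percentile, on at least 2 arrays of a tissue compared (7858 in stomach, 7913 in colon, 8393 between tissues). The number of arrays limits the precision. The fit was tested on simulated data. Promoter sequences and coordinates are RefSeq's, GRCm38.p6. The members and lists were chosen with earlier results of these data known. Genes named are the members, Spdef, in each list up to 4 that passed with the largest differences (or 2 with the smallest p), list genes set beside a member for their role, chosen after their values were seen, and the 8 nearest profiles. Alternatives are given in the closing section.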

Additional observations from a re-analysis of the deposited data

Results flagged for a closer look

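In 16 checks of a member's 6 arrays in a tissue for a lone extreme value, 2 stood apart, where chance alone gives about 1 in 20. Myh11 on colon WT 2 was at 10.93, and the nearest colon array was at 12.12, a gap of 0.627 of the whole range. Cnn1 on stomach KO 2 was at 11.32, and the nearest stomach array was at 11.63, a gap of 0.705 of the range.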

How the results depend on the processing

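Mylk kept its higher level in colon over all genotypes in 29 of 29 alternatives (0.84 to 1.46, adjusted p 6.6e-06 to 0.00126). The count of members called was less stable. With the processing note as a block, a term that only colon WT 1 against colon WT 2 can estimate, it was 6 between the tissues, 5 in WT, 4 in HET, 7 in KO, 3 in stomach KO minus WT, 4 in stomach KO minus HET, 4 in colon KO minus WT, 5 in colon HET minus WT, 6 in the KO minus WT interaction and 3 in the KO minus HET interaction. Under that block Myh11 in WT was -0.72, Cnn1 in WT -1.02, Acta2 in KO 0.57, Actg2 1.85 in the KO minus WT interaction, and Des 2.13 and Cnn1 2.02 in the KO minus HET interaction, all opposite in sign. Array weights raised the count between the tissues and in HET. The third Mylk probe set gave 0 in HET and 0 in KO. Without the WT arrays 5 of 7 members passed between the tissues, leaving out Synpo2, where 45.3% of all genes changed. In the same fit 4 passed in HET (29.1% of all genes did) and 2 in KO (29.6%). Without the colon WT arrays alone the count between the tissues also rose. Leaving out single arrays moved the count between the tissues and within each genotype. It also moved the count in colon KO minus WT, colon HET minus WT and the KO minus WT interaction. In WT it moved Myh11 from -0.72 to 1.18 and Cnn1 from -1.02 to 1.08. The labels state no pairing by replicate number. Correlations of deviations between groups were -0.32 to 0.29, which with 2 arrays a group cannot show whether arrays were paired. With the replicate block the count stayed 1 in each comparison of tissues and 0 in each of genotypes. Of 2366 recomputed differences of members that passed in neither fit, 107 changed sign. The causes were not tested. With 2 arrays a group, and Synpo2 near the detection limit, small differences could not be resolved.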
